A study of Mus musculus with 6 samples.

Results

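Meg3 and 8 other imprinted genes of growth control were followed in 6 RNA sequencing libraries of sorted mouse heart cells. The 9 genes, Meg3, Rian, Dlk1, H19, Igf2, Peg3, Plagl1, Cdkn1c and Grb10, were found by symbol among the 45038 genes of the deposited table, and each had 1 row. Meg3 was chosen by its FPKM in these libraries: its value in every infarct library lay above its value in every normal library. Its difference between the groups is a description with no test. The other 8 were named as imprinted genes of the same kind. There were 3 libraries labelled MI (myocardial infarction) and 3 labelled Normal. All came from C57BL/6 mice carrying Tie2-Cre and the Rosa-LSL-tdTomato reporter, 6 to 8 weeks old at surgery. The MI cells came from infarcted tissue 3 weeks after the left anterior descending coronary artery was tied off. The Normal cells came from left ventricle labelled as having had no MI surgery, although the protocol text is shared by all 6 libraries. The sort kept tdTomato-bearing cells that lacked F4/80, a macrophage surface antigen, and RNA was amplified before sequencing. Tie2-Cre is active in endothelial cells and also in part of the blood lineage, so the reporter does not mark endothelium alone. Each group has the numbers Ms1535, Ms1537 and Ms1608, and the labels do not say whether the same number means the same mouse or whether libraries came from separate mice, so p-values measure only the spread between these libraries.

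An imprinted gene is transcribed mainly from the chromosome inherited from one parent, under the control of DNA methylation at CpG sites laid down in the germ line. Meg3, Rian, H19, Cdkn1c and Grb10 are expressed from the maternal copy in most mouse tissues, and Dlk1, Igf2, Peg3 and Plagl1 from the paternal copy. Many of these genes are strongly expressed in the embryo and fall to low levels in most organs after birth. The zinc finger factor Plagl1 is known in the mouse as a regulator of a network that includes several of the others. The libraries measure total RNA of each gene, and the parental origin of that RNA was not analysed here.

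Positions are given on build GRCm38. Meg3 (ENSMUSG00000021268.14) lies on the plus strand at chr12:109541001-109571726, and its transcripts are non-coding. Rian starts 32.2 kb beyond its end on the same strand, at chr12:109603940-109661716, and Dlk1 lies upstream at chr12:109452823-109463336. H19 (chr7:142575529-142578143) and Igf2 (chr7:142650766-142666816) are 72.6 kb apart on the minus strand, and Cdkn1c (chr7:143458339-143461050) lies 791.5 kb beyond Igf2. Peg3 is on the same chromosome at chr7:6703892-6730431, Plagl1 at chr10:13060504-13131694 and Grb10 at chr11:11930508-12038683.

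The start regions of the 3 genes of the Meg3 domain are shown because these neighbours, which share 1 imprinted region, had very different levels. Each window runs 250 bases before to 50 bases after a RefSeq start (GRCm38.p6), at chr12:109540746-109541045 for Meg3, chr12:109603695-109603994 for Rian and chr12:109452573-109452872 for Dlk1, all on the plus strand, with every CpG in capitals.
Meg3: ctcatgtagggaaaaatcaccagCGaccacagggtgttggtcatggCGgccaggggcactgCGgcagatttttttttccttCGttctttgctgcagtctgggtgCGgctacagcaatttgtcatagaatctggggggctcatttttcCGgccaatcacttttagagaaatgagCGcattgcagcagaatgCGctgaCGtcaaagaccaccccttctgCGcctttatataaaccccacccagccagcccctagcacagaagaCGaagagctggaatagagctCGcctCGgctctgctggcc
Rian: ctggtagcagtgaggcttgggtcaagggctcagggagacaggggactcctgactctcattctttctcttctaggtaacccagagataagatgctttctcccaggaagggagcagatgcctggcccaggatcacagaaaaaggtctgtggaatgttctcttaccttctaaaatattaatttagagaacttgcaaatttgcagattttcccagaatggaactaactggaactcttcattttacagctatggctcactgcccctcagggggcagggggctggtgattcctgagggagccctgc
Dlk1: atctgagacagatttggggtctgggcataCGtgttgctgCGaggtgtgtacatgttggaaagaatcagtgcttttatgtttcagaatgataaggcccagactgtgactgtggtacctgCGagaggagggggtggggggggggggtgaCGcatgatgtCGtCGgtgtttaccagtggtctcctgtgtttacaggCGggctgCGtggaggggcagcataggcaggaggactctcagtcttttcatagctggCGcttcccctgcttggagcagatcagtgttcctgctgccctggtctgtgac
The Meg3 window holds 13 CpG sites, the Rian window 0 and the Dlk1 window 9. A second RefSeq start of Meg3 has a window at chr12:109545148-109545447 with 1 CpG and neither of the motifs named next. Over the 32851 windows of the RefSeq table the median is 7, and 5.43% of windows hold none. A pair of short motifs was searched on both strands. The palindrome TGACGTCA, the letters of a cAMP response element, starts at position -57 in the Meg3 window and is found in 1.79% of all windows. TATAAA starts at -25 in the Meg3 window, and its reverse complement TTTATA at -29, overlapping it, where 13.62% of all windows hold one or the other. Neither motif is in the Rian or Dlk1 window. Among the 12 windows of the 7 genes found in the table, TGACGTCA also stands in that of Peg3 at -178, and the Grb10 window at chr11:12037371-12037670 is the richest in CpG with 45 sites.

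The libraries differed in ways that bear on these genes. Implied depths, read from the steps of low values, were 34.9 to 48.8 M fragments in MI and 35.3 to 43.9 M in Normal, and 3 fragments on a transcript of 2 kb then correspond to 0.0307 to 0.043 FPKM, for counting error only. FPKM are fragments per kilobase of transcript and per M mapped fragments, M being the SI prefix mega. Across genes, Normal Ms1608 correlated with the other 5 libraries at 0.544 to 0.685 (Pearson, log2(FPKM + 1)), while those 5 correlated with each other at 0.798 to 0.917. Summed over 8 endothelial markers, the MI libraries Ms1535, Ms1537 and Ms1608 held 415, 1012 and 259 FPKM, against 1217 and 848 FPKM in the libraries Normal Ms1535 and Normal Ms1537, with 36.7 FPKM in Normal Ms1608. Summed over 8 leukocyte markers, the same order gave 6159, 5160 and 5799 FPKM across MI, beside 1349 and 1803 FPKM in the libraries Normal Ms1535 and Normal Ms1537, with 10724 FPKM in Normal Ms1608. Normal Ms1608 thus stood apart, low in summed endothelial and high in summed leukocyte markers, and values without it are given below where it moves a result. That library was lowest for 7 of the 8 endothelial markers. Pecam1 went the other way, with 28.3 FPKM in Normal Ms1608 and 7.20 to 23.7 FPKM in the other libraries. Values of 3 libraries are always listed as Ms1535, Ms1537 and Ms1608. Summed over 8 fibroblast markers, MI held 5467, 5013 and 899.8 FPKM and Normal 634, 819 and 189 FPKM. None of these 24 markers was listed at 0 in any library. In bulk RNA of this kind, fewer cells of a type and less RNA per cell cannot be told apart. Of the tested genes, 44.1% had their lowest value of all 6 libraries in Normal Ms1608.

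Meg3, a long non-coding RNA, was the 1 gene of the 9 whose groups did not overlap. It was measured at 79.5, 49.7 and 13.8 FPKM across the MI libraries, beside 2.89, 0.951 and 0.460 FPKM across the Normal ones. All 3 MI libraries were above all 3 Normal libraries, as the choice of the gene required, and the lowest MI value was 4.799 times the highest Normal value. Meg3 averaged 47.7 ± 32.9 (MI) and 1.43 ± 1.28 FPKM (Normal; SD, n = 3 each), and the log2 difference was 4.14 computed from log2(FPKM + 1), a scale that compresses changes at low values. Non-overlap of this kind was common: 25% of the 10168 tested genes lay higher in every MI library than in every Normal library, and 0.354% lay lower. By the size of its log2 difference Meg3 stood 9th among the 10168, whose median was 0.78. Within the numbers, Meg3 was 27.6 times higher in MI for Ms1535, 52.3 times for Ms1537 and 30.1 times for Ms1608. The choice of the gene fixed this direction, and the labels do not say that the numbers mark pairs. Without Normal Ms1608 its log2 difference was 3.83, and with median-ratio scaling of all 6 libraries it was 3.31.

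**Figure D1:**
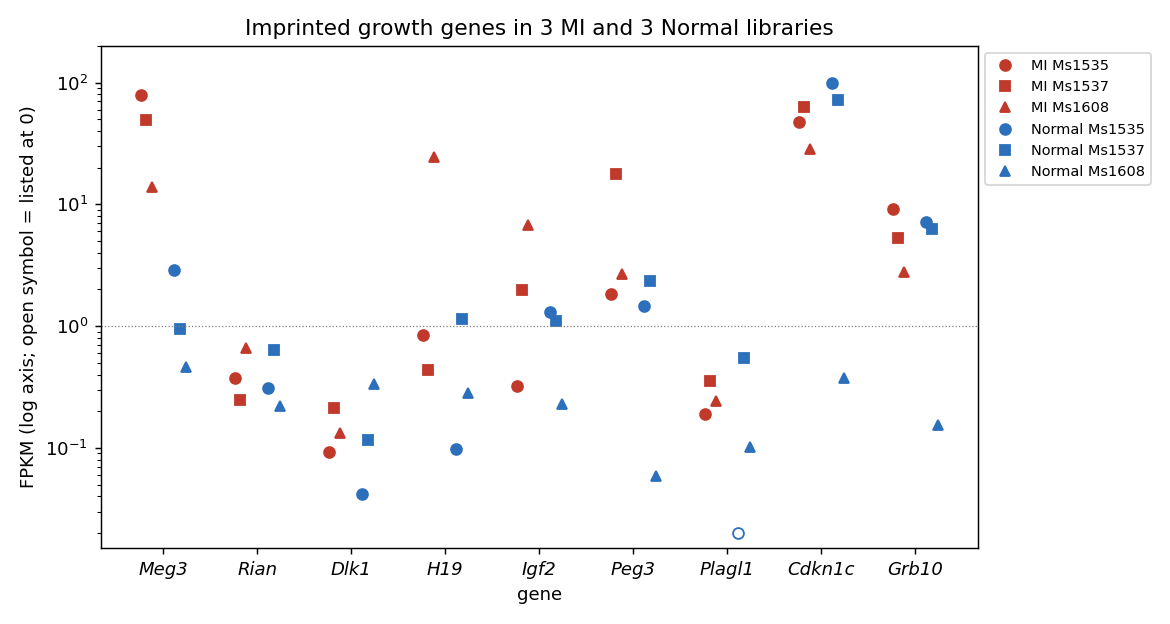
FPKM of the 9 imprinted genes on a log axis, with 1 point per library, MI at the left and Normal at the right of each gene; the dotted line marks 1 FPKM and the open symbol a value listed at 0. Meg3 is the 1 gene whose MI points (13.8 to 79.5 FPKM) all lie above its Normal points (0.460 to 2.89 FPKM), while Cdkn1c and Grb10 are low in Normal Ms1608.

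The levels of Meg3 moved with those of connective tissue markers, in part. The fibroblast sum was also highest in MI Ms1535 and lowest in Normal Ms1608. Every MI library was above every Normal library in 6 of the 8 fibroblast markers, beside 25% of all tested genes. The fibroblast sum was 899.8 FPKM in MI Ms1608 and 819 FPKM in Normal Ms1537, libraries in which Meg3 was at 13.8 and 0.951 FPKM. Dcn alone held 702 FPKM in MI Ms1608 and 707 FPKM in Normal Ms1537, so these sums were mostly that marker. The part of fibroblast RNA in the Meg3 difference was not tested. The leukocyte sum was highest in Normal Ms1608, where Meg3 was lowest, but over the other 5 libraries it was higher in MI (5160 to 6159 FPKM) than in Normal (1349 and 1803 FPKM), as Meg3 was. Without Normal Ms1608, 7 of the 8 leukocyte markers were called higher in MI by limma (median log2 difference 2.78), where 4.51% of all tested genes were called in either direction. The part of leukocyte RNA in the Meg3 difference was not tested.

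**Figure D2:**
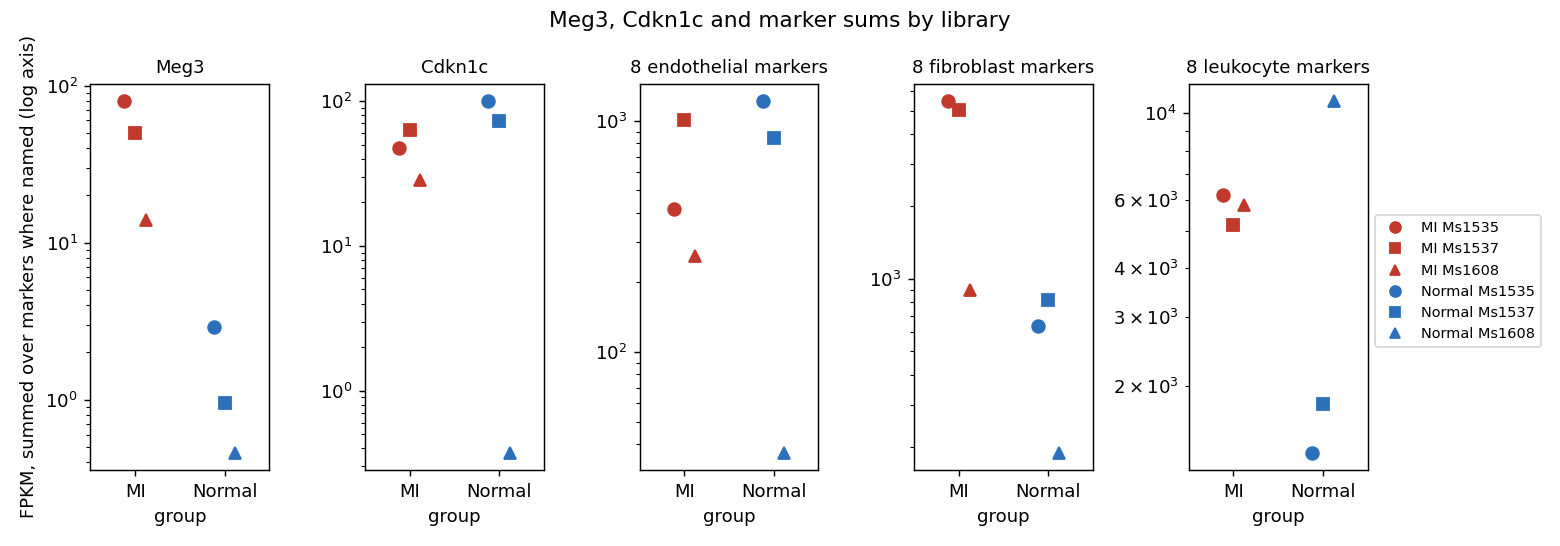
FPKM of Meg3 and of Cdkn1c, and FPKM summed over 8 markers each of endothelium, fibroblasts and leukocytes, by library, MI left and Normal right, each on its own log axis. Normal Ms1608 is lowest for Cdkn1c (0.374 FPKM) and endothelial markers (36.7 FPKM) and highest for leukocyte markers (10724 FPKM).

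The genes whose log2(FPKM + 1) was most like that of Meg3 over the 6 libraries were named by Pearson correlation among 8828 annotated genes that passed the filter. They were Tank (0.999), Yipf2 (0.998), Cdkn2aipnl (0.998), Dcaf4 (0.997) and Ncor1 (0.996). These values rank genes over 6 libraries that share the group difference and are given only as a description. Tank, an adaptor of TRAF signalling, had 9.02, 7.49 and 3.67 FPKM across the MI libraries, beside 1.41, 0.807 and 0.684 FPKM across the Normal ones, the same order as Meg3 over a narrower range. No other imprinted gene of the 9 correlated with Meg3 above 0.627, the value for Peg3.

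Rian, the non-coding host transcript of small nucleolar RNAs and microRNAs downstream of Meg3, was low in both groups. It was measured at 0.374, 0.248 and 0.658 FPKM across the MI libraries, beside 0.308, 0.634 and 0.223 FPKM across the Normal ones. The groups overlapped, and the highest and second highest values were in MI Ms1608 and Normal Ms1537. Rian averaged 0.427 ± 0.210 (MI) and 0.388 ± 0.217 FPKM (Normal; SD, n = 3 each), and the log2 difference was 0.04. It stayed under 1 FPKM in every library and was not tested in the comparison over filtered genes, and without the filter it had a limma adjusted p of 0.963 (SE 0.27). Meg3 exceeded Rian 212, 200.3 and 21.1 times in MI Ms1535, Ms1537 and Ms1608, against 9.36, 1.5 and 2.07 times in the Normal libraries.

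Dlk1, a transmembrane protein with EGF-like repeats that restrains fat cell differentiation, was also low in both groups. It had 0.0922, 0.213 and 0.132 FPKM across the MI libraries, beside 0.0420, 0.117 and 0.334 FPKM across the Normal ones. The groups overlapped, with both the highest and the lowest value in Normal libraries. Its difference on the log2 scale came to -0.02 (SE 0.11, limma adjusted p = 0.963 without the filter).

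The rest of the Meg3 domain was likewise low. Of 10 longer genes in the table between Dlk1 and Dio3, a span of 828.3 kb, Meg3 was the 1 gene that reached 1 FPKM in any library. Mirg, another host transcript of microRNAs in this domain, was measured at 0.379, 0.321 and 0.423 FPKM across the MI libraries, beside 0.0585, 0.0869 and 0.226 FPKM across the Normal ones, so that its groups did not overlap. This pattern was seen in 12.6% of the 30727 genes with any value above 0. Rtl1, a retrotransposon-derived gene on the opposite strand, lay between 0.00933 and 0.0233 FPKM in MI and between 0.0129 and 0.0232 FPKM in Normal. All 67 microRNA genes and all 23 small nucleolar RNA genes of the domain were listed at 0 in all 6 libraries, as were 2038 of the 2190 microRNA genes of the whole table. A 0 in such short genes can be a failed estimate and does not show that the RNA was absent. Gm26906, which lies antisense over the end of Meg3, was listed at values near 0 throughout; the strand setting was not given in the sources used here, so reads of the pair cannot be told apart.

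**Figure D3:**
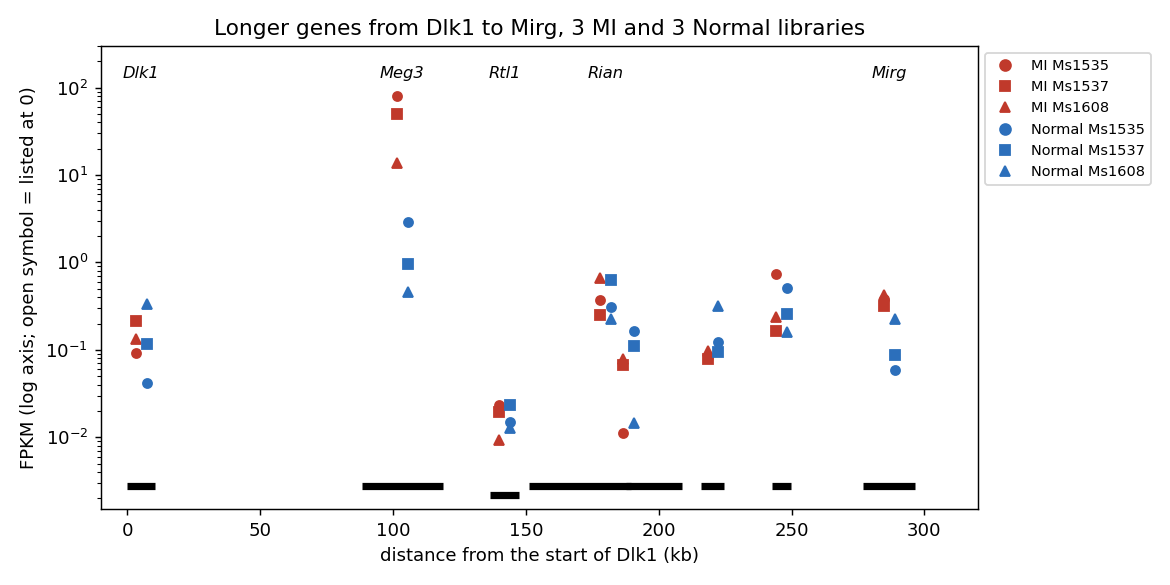
FPKM on a log axis of the longer genes of the Meg3 domain up to Mirg, without Gm26906 and Dio3, placed by distance in kb from the start of Dlk1, with bars below for gene extents (upper row plus strand, lower row minus strand), 1 point per library, and MI left of Normal at each gene. Meg3 reaches 13.8 to 79.5 FPKM in MI and 0.460 to 2.89 FPKM in Normal, while every point of Dlk1, Rtl1, Rian and Mirg lies under 1 FPKM.

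H19, a long non-coding RNA abundant in fetal mesoderm, was high in 1 library. It had 0.841, 0.439 and 24.6 FPKM across the MI libraries, beside 0.0982, 1.15 and 0.282 FPKM across the Normal ones. Apart from MI Ms1608 the groups overlapped. Its log2 difference was 1.495, and it was 0.17 without MI Ms1608. H19 reached 1 FPKM in 2 libraries and was below the filter, and without the filter it had a limma adjusted p of 0.649 (SE 1.16).

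Igf2, the fetal insulin-like growth factor, was highest in the same library as its neighbour H19. It had 0.323, 1.97 and 6.73 FPKM across the MI libraries, beside 1.31, 1.11 and 0.230 FPKM across the Normal ones. The groups overlapped, since MI Ms1535 lay below Normal Ms1535 and Normal Ms1537. MI Ms1537 and MI Ms1608 lay above every Normal library. Igf2 averaged 3.01 ± 3.33 (MI) and 0.883 ± 0.574 FPKM (Normal; SD, n = 3 each). On the log2 scale MI exceeded Normal by 0.78 (SE 0.64, limma adjusted p = 0.531), and by 0.13 without MI Ms1608 or 0.50 without Normal Ms1608. The median of all tested genes was likewise 0.78, with 0.93 without MI Ms1608 and 0.83 without Normal Ms1608. In MI Ms1608 the summed cardiomyocyte markers (1024 FPKM over 8 genes) and erythroid markers (9600 FPKM over 6 genes) were the highest of the 6 libraries as well. In Normal Ms1535 and Normal Ms1537 the cardiomyocyte sums were 817 and 452 FPKM and the erythroid sums 6833 and 7233 FPKM. H19 was at 0.0982 and 1.15 FPKM in that pair of libraries, and Igf2 at 1.31 and 1.11 FPKM. The part of cardiomyocyte and erythroid RNA in the H19 and Igf2 values was not tested. Igf2os, antisense to Igf2, was at 0.0203, 0.158 and 0.161 FPKM across the MI libraries, beside 0.132, 0.163 and 0.00578 FPKM across the Normal ones, with the same caution on strand.

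Peg3, a zinc finger protein of the paternally expressed group, was highest in MI Ms1537. It had 1.82, 17.8 and 2.66 FPKM across the MI libraries, beside 1.47, 2.34 and 0.0588 FPKM across the Normal ones. In each number, not known to mark a pair, the MI library was above the Normal library. The groups overlapped, since MI Ms1535 lay below Normal Ms1537. Among the other 8 genes, Peg3 came closest to the pattern that chose Meg3, with its lowest MI value at 0.780 times its highest Normal value. Its difference on the log2 scale came to 1.49 (SE 0.82, limma adjusted p = 0.366), 0.64 without MI Ms1537 and 1.01 without Normal Ms1608.

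Plagl1, the zinc finger regulator of other imprinted genes, was low in both groups. It had 0.189, 0.357 and 0.244 FPKM across the MI libraries, was listed at 0 in Normal Ms1535, and had 0.548 and 0.102 FPKM in Normal Ms1537 and Ms1608. Its difference on the log2 scale came to 0.08 (SE 0.19, limma adjusted p = 0.857 without the filter), with overlapping groups.

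Cdkn1c, which encodes the cyclin-dependent kinase inhibitor p57, was the most abundant of the 9 in all libraries but MI Ms1535 and the low Normal Ms1608. It had 47.6, 63.0 and 28.4 FPKM across the MI libraries, against 99.7 and 72.6 FPKM in the libraries Normal Ms1535 and Normal Ms1537, with 0.374 FPKM in Normal Ms1608. The direction of its difference rested on Normal Ms1608. With all 6 libraries the log2 difference was 1.05 (SE 1.41, limma adjusted p = 0.722). Without Normal Ms1608 it was -0.94 (SE 0.48, limma adjusted p = 0.206), and all 3 MI libraries then lay below both Normal libraries, a pattern of 1.75% of the tested genes. With median-ratio scaling and without Normal Ms1608 the difference was -2.005 (SE 0.32, limma adjusted p = 0.0949), an alternative added after the data had been seen. The endothelial marker sum was likewise far lower in Normal Ms1608 than in any other library. Over the other 5 its MI values (259 to 1012 FPKM) overlapped those of Normal Ms1535 and Ms1537 (1217 and 848 FPKM). The median log2 difference of the 8 endothelial markers was 0.71 with all 6 libraries and -0.86 without Normal Ms1608. The part of endothelial RNA in the Cdkn1c values was not tested.

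Grb10, an adaptor protein that restrains insulin and IGF1 receptor signalling, was, like Cdkn1c, lowest by far in Normal Ms1608. Over the other 5 libraries the order of the pair differed, since Grb10 was highest in MI Ms1535 and Cdkn1c in Normal Ms1535. It had 9.23, 5.33 and 2.80 FPKM across the MI libraries, against 7.19 and 6.26 FPKM in the libraries Normal Ms1535 and Normal Ms1537, with 0.153 FPKM in Normal Ms1608. The MI values lay on both sides of Normal Ms1535 and Ms1537. The log2 difference was 0.61 (SE 0.88, limma adjusted p = 0.742) with all 6 libraries and -0.30 (SE 0.56, limma adjusted p = 0.699) without Normal Ms1608. The medians of all tested genes were 0.78 and 0.83 in these settings. The Grb10 difference was negative under all 3 scalings tried.

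**Figure D4:**
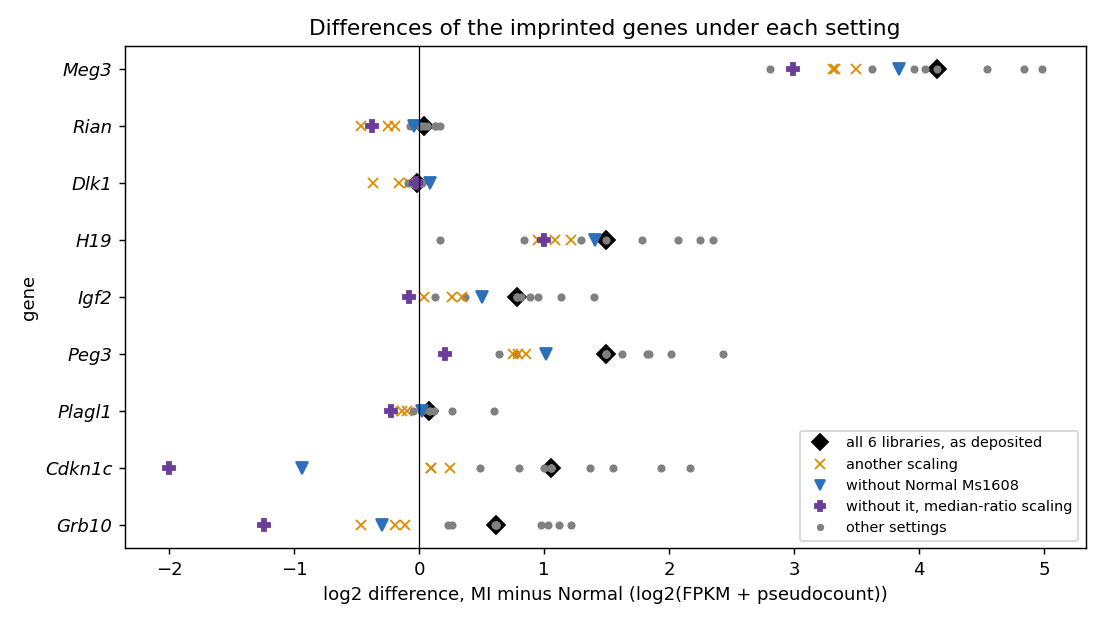
Log2 difference, MI minus Normal, of each of the 9 genes (rows) under every setting, with black diamonds for all 6 libraries as deposited, blue triangles without Normal Ms1608, orange crosses for other scalings, purple plus signs for both changes together and grey dots for the rest. Meg3 lies between 2.80 and 4.98 in all of them. The rule that chose Meg3 already fixed its sign for any library left out and any pseudocount. Cdkn1c ranges between -2.005 and 2.16 and Grb10 between -1.24 and 1.21.

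Of the 9 genes, 5 passed the filter of at least 1 FPKM in at least 3 libraries. Normal Ms1608 held the lowest value in all 5, beside 44.1% of all tested genes. Meg3 passed the filter through its 3 MI libraries and Normal Ms1535. Of the 4 tested beside Meg3, limma called 0 (adjusted p under 0.05) and 0 had an unadjusted p under 0.05. Over all tested genes, 0.00983% were called, which is 1 predicted gene, Gm24890, listed at 0 in Normal, and unadjusted p under 0.05 were found for 16.1% in the higher and 0.207% in the lower direction. A p that misses the threshold with 3 libraries a group does not show that the groups were alike. Without Normal Ms1608, 4.51% were called and 30.8% had an unadjusted p under 0.05 in the higher direction and 0.738% in the lower, and 0 of these 4 were called. MI was above both remaining Normal libraries in 52.6% of tested genes, and in 1 of the 5 tested here, Meg3, which was chosen for that pattern. The order of mean levels over the 6 libraries was Cdkn1c (51.9 FPKM), Meg3 (24.6), Grb10 (5.16), H19 (4.58), Peg3 (4.36), Igf2 (1.95), Rian (0.407), Plagl1 (0.240) and Dlk1 (0.155). Neighbours in this order overlapped in their ranges over the libraries.

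Other imprinted genes were examined as a list. Of 30 further imprinted genes 29 were in the table and 15 were tested, and none was called by limma (0 of 15), while 1 had an unadjusted p under 0.05 in the direction of MI, and 5 had every MI library above every Normal library. Over all tested genes these shares were 0.00983%, 16.1% and 25%. Their median log2 difference was 0.89, beside 0.78 for all tested genes, but without Normal Ms1608 it was 0.48, beside 0.83. With all 6 libraries 13 of the 15 were positive, where 87.2% of all tested genes were. Normal Ms1608 was the lowest library for 13 of the 15, beside 44.1% of all tested genes. It was also lowest for 7 of the 8 endothelial markers and all 5 tested cardiomyocyte markers. The most abundant was Gnas, the stimulatory G protein subunit, at 319.6 ± 117 (MI) and 187.5 ± 54.4 FPKM (Normal; SD, n = 3 each, log2 difference 0.74, SE 0.58, limma adjusted p = 0.517). Osbpl5, a lipid transfer protein, had 31.3, 35.7 and 29.2 FPKM across the MI libraries, beside 12.8, 8.54 and 0.307 FPKM across the Normal ones. Its groups did not overlap, and its difference on the log2 scale came to 2.57 (SE 0.92, limma adjusted p = 0.252), and to 1.52 without Normal Ms1608. Ndn, the growth suppressor necdin, was at 11.6, 22.6 and 14.6 FPKM across the MI libraries, beside 12.4, 15.6 and 0.0181 FPKM across the Normal ones, so that its difference of 1.45 was 0.16 without Normal Ms1608. Commd1, the host gene region of imprinted Zrsr1, had 101.5, 197 and 82.1 FPKM across the MI libraries, beside 178, 116 and 1.25 FPKM across the Normal ones, and its difference of 1.72 was -0.28 without Normal Ms1608.

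Neighbours of the 9 genes in their own domains gave a similar picture. Of 21 neighbours, 19 were in the table and 5 were tested. Limma called 0 of the 5, beside 0.00983% of all tested genes. An unadjusted p under 0.05 was found for 0. Over all tested genes it was found for 16.1% in the higher and 0.207% in the lower direction. The median log2 difference of the 5 was 0.88, and 0.63 without Normal Ms1608, beside 0.78 and 0.83 for all tested genes. In the Cdkn1c domain, the tetraspanin Cd81 had 194, 225 and 111 FPKM across the MI libraries, beside 251, 157 and 22.5 FPKM across the Normal ones, and its log2 difference of 0.80 was -0.23 without Normal Ms1608. Tssc4, of the same domain, had 27.4, 20.2 and 48.9 FPKM across the MI libraries, beside 37.0, 24.4 and 0.695 FPKM across the Normal ones, and its log2 difference of 1.40 was 0.0023 without Normal Ms1608. Phactr2, next to Plagl1, had 3.10, 4.76 and 1.68 FPKM across the MI libraries, beside 1.43, 0.777 and 20.7 FPKM across the Normal ones, and its log2 difference of -0.19 was 0.94 without Normal Ms1608. Nap1l4, a histone chaperone of the Cdkn1c domain, had 25.4, 27.7 and 23.6 FPKM across the MI libraries. Its Normal values were 18.4, 8.93 and 14.6 FPKM. Every MI library was above every Normal library, as in 25% of all tested genes (log2 difference 0.88, SE 0.64, limma adjusted p = 0.486). Kcnq1ot1, the long antisense RNA that silences that domain in cis, was under 1 FPKM in every library, with 0.423, 0.684 and 0.194 FPKM across the MI libraries, beside 0.234, 0.113 and 0.0337 FPKM across the Normal ones.

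**Figure D5:**
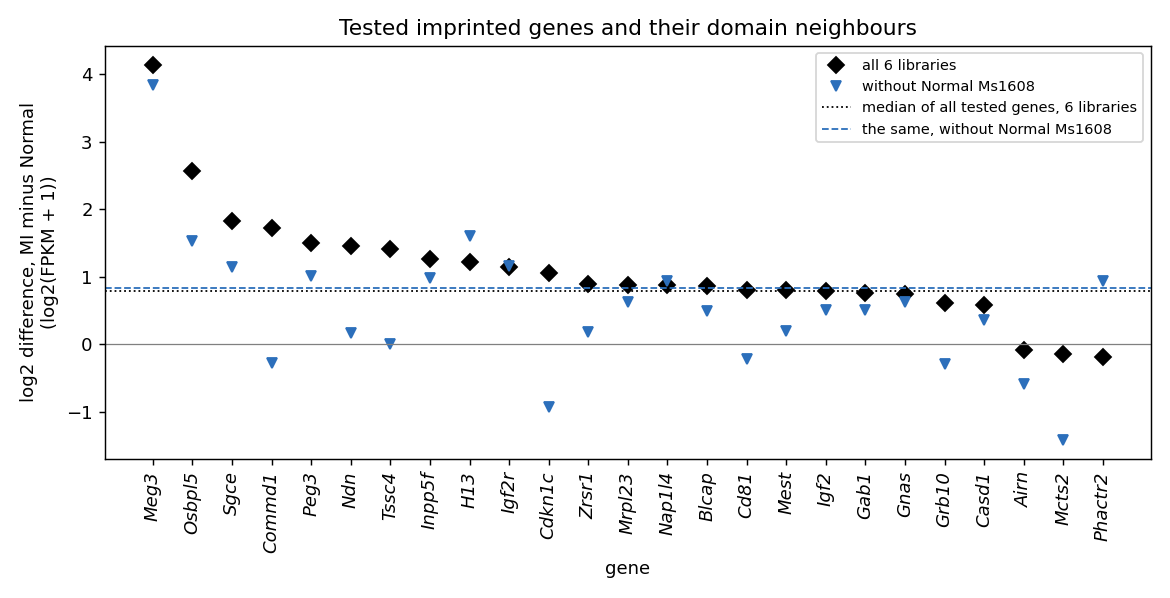
Log2 difference, MI minus Normal, of the 25 tested imprinted genes and domain neighbours, ordered by the value with all 6 libraries (diamonds), with the value without Normal Ms1608 (triangles) and the medians of all tested genes (lines). With all 6 libraries 22 of the 25 lie above 0, and without Normal Ms1608 19 do.

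Growth factor signalling around Igf2 and the cell cycle inhibitors related to Cdkn1c were read the same way. Of 16 partners of IGF2 signalling 9 were tested, and limma called 0, beside 0.00983% of all tested genes. Of the 9, 2 had an unadjusted p under 0.05, both higher in MI, where 16.1% of all tested genes were. The median log2 difference was 0.78 with all 6 libraries and 1.14 without Normal Ms1608, beside 0.78 and 0.83 for all tested genes. Grb2, the adaptor that links growth factor receptors to Ras and the most abundant of these genes, had 14.6, 22.0 and 21.5 FPKM across the MI libraries, beside 5.69, 3.68 and 73.7 FPKM across the Normal ones. The Grb2 difference came to 0.60 (SE 1.01, limma adjusted p = 0.787), and 1.84 without Normal Ms1608 (limma adjusted p = 0.0615). Igf1, the postnatal growth factor, had 34.5, 26.8 and 2.90 FPKM across the MI libraries, beside 7.62, 3.27 and 0.0898 FPKM across the Normal ones (log2 difference 2.19, SE 1.05, limma adjusted p = 0.317), and the difference was 1.37 without Normal Ms1608. Igf2r, the imprinted receptor that clears IGF2, had 10.4, 16.8 and 1.92 FPKM across the MI libraries, beside 2.19, 3.47 and 2.92 FPKM across the Normal ones, with MI Ms1608 the lowest of all (log2 difference 1.14, SE 0.80, limma adjusted p = 0.463). Grb14, an adaptor of the same family as Grb10, had 4.53, 14.2 and 6.80 FPKM across the MI libraries. Its Normal values were 2.59, 1.37 and 0.0807 FPKM. Every MI library was above every Normal library, as in 25% of all tested genes (log2 difference 2.05, SE 0.71, limma adjusted p = 0.252).

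Of 9 cell cycle inhibitors and their regulators 6 were tested. Limma called 0 of them with all 6 libraries, beside 0.00983% of all tested genes. An unadjusted p under 0.05 was found for 3, all higher in MI, where 16.1% of all tested genes were. The median log2 difference was 1.17, and 1.64 without Normal Ms1608, beside 0.78 and 0.83 for all tested genes. Rb1, the retinoblastoma protein and the most abundant of them, had 142, 89.4 and 45.5 FPKM across the MI libraries, beside 49.1, 47.9 and 59.3 FPKM across the Normal ones, with overlapping groups (log2 difference 0.68, SE 0.66, limma adjusted p = 0.604). Without Normal Ms1608, limma called 2 of the 6, both higher in MI, beside 4.51% of all tested genes. Cdkn2d, the INK4 inhibitor p19, was one of them, at 24.0, 39.2 and 45.4 FPKM across the MI libraries, beside 5.23, 4.73 and 17.0 FPKM across the Normal ones (log2 difference 2.06, SE 0.72, limma adjusted p = 0.252, and 2.59 with adjusted p = 0.0298 without Normal Ms1608). Mdm2, the ubiquitin ligase of p53, was the other, with log2 differences of 1.66 and 2.09 and limma adjusted p of 0.285 with all 6 libraries and 0.0440 without Normal Ms1608. Cdkn1b, the p27 relative of Cdkn1c, had 17.9, 16.4 and 17.1 FPKM across the MI libraries. Its Normal values were 4.16, 4.63 and 85.1 FPKM. Normal Ms1608, the library with the least Cdkn1c, held the most Cdkn1b, but also the most Cdkn1a and the highest leukocyte marker sum. A relation between these genes was not tested. The log2 difference of Cdkn1b was 0.42, and 1.75 without Normal Ms1608 (limma adjusted p = 0.862 and 0.0604). Cdkn1a, the p21 relative, had 22.0, 21.8 and 21.6 FPKM across the MI libraries, beside 12.01, 7.95 and 72.6 FPKM across the Normal ones, and its log2 difference of 0.15 was 1.08 without Normal Ms1608.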

How the data were processed

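The deposited table holds FPKM values made by the authors, 1 column per library, with no other per-sample columns. Per the submitters' processing notes, STAR 2.4.2a and Cufflinks 2.2.1 were used with build GRCm38. Annotation release, strand and multi-mapping settings are not given in the sources used here. Positions came from GENCODE M21, in which 98.6% of identifiers were found. The members and lists were chosen with earlier results of these data known. The 10168 genes reaching 1 FPKM in 3 or more of 6 libraries were compared by limma 3.58.1 (R 4.3.3) on log2(FPKM + 1) values, its prior variance following mean level, group as the only term, with Benjamini-Hochberg adjustment over all tested genes and a threshold of 0.05. An exact two-sided permutation test of 3 libraries against 3 cannot give a p under 0.1 and was not used. The fit was tested on simulated data: most changes were recovered, with the right sign, at a small spread, but none was called at the spread of these libraries.

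Depth was read from single-transcript genes, where 86.9% to 90.1% of low values lay within 0.1 of a whole number of fragments (20% if evenly spread), at an assumed fragment length of 200 bases; the step was fitted to the same values. Named genes were the 9 members, up to 4 per list with the highest mean FPKM, and the 5 most correlated with Meg3. Mdm2, Kcnq1ot1, Gm26906, Igf2os, Gm24890 and Pecam1 were added after their values were seen. Alternatives changed the pseudocount, filter, scaling, variance model, block and libraries.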

Additional observations from a re-analysis of the deposited data

How the results depend on the processing

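The number of genes called by limma was 1 in the comparison as reported and between 1 and 459 when 1 library was left out, with 459 without Normal Ms1608, 2 without MI Ms1537 and 1 in the other 4 cases, and it was 3 with median-ratio scaling and without Normal Ms1608, an alternative chosen after seeing the data. The log2 difference of Meg3 was 2.80 with a pseudocount of 5 and 2.99 with that added alternative. It lay between 3.62 and 4.84 when 1 library was left out. The rule that chose Meg3 already fixed its sign for any library left out and any pseudocount. Rian had differences of -0.25, -0.19 and -0.47 with median-ratio, upper-quartile and quantile scaling, and -0.38 with median-ratio scaling without Normal Ms1608. Dlk1 had -0.16 with median-ratio and -0.37 with quantile scaling, and Plagl1 had 0.60 with a pseudocount of 0.1, -0.21 with quantile scaling and -0.23 with median-ratio scaling without Normal Ms1608. Cdkn1c was reversed without Normal Ms1608 (-0.94, and -2.005 with median-ratio scaling as well) and lay between -0.94 and 2.16 when 1 library was left out. Grb10 was reversed with median-ratio (-0.19), upper-quartile (-0.11) and quantile scaling (-0.46) and without Normal Ms1608 (-0.30, and -1.24 with median-ratio scaling as well), and lay between -0.30 and 1.11 when 1 library was left out. Igf2 was reversed, at -0.085, with median-ratio scaling without Normal Ms1608, and had 0.26, 0.35 and 0.036 under median-ratio, upper-quartile and quantile scaling. Peg3 had 0.79, 0.86 and 0.75 under these scalings and 0.21 with median-ratio scaling without Normal Ms1608. The cause of these changes was not tested. Limma adjusted p of the 4 tested genes beside Meg3 lay between 0.0949 and 0.998 over all settings. The median of all tested genes was 0.78 as deposited, and moved to -0.03 (median-ratio), 0.20 (upper-quartile) or 0.04 (quantile) once scaled. The replicate block called 1 gene and changed no call among the 4 genes tested beside Meg3, and its fit gave Peg3 a difference of 1.49 (adjusted p 0.272). The shared numbers were not taken as pairs, since the labels do not say whether they mark the same mouse. Deviations of same-numbered libraries from their group means correlated at -0.052, 0.098 and 0.087. With means of only 3 libraries, 1 of them Normal Ms1608, these values cannot decide whether the numbers are pairs. Under the stricter filter (mean FPKM of 5 or more), Igf2 and Peg3 were not tested. Values of Rian, Dlk1 and Plagl1 were under 1 FPKM in every library, and 3 libraries a group limit the precision of all of these differences.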
